A study of Mus musculus with 40 samples.

Results

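MHC class II presentation was followed through 7 genes, H2-Aa, H2-Ab1, H2-Eb1, Cd74, H2-DMa, H2-DMb1 and Ciita, which were taken from the 54307 genes of the table by their symbols. All 7 were found, and all 7 passed the filter on low values in both tissues. RNA was sequenced from the choroid and the retina of 20 mice described as on a C57BL/6J background, which gave 40 libraries. The day of collection was day 3 after laser treatment with 6 burns per eye, a model of choroidal neovascularization (CNV), and for the choroid the central part with the lesions was used. Every mouse carried floxed Tgfbr2 alleles (Tgfbr2 fl/fl) and received tamoxifen eye drops from an age of 6 to 7 weeks. Tgfbr2ΔEC mice carried in addition Cdh5-CreERT2, a tamoxifen-dependent Cre recombinase driven by an endothelial promoter, and controls were littermates without Cre. PLX5622 (PLX) inhibits the CSF1 receptor, on which mononuclear phagocytes (MP) depend, and was given in the diet. The groups of 5 mice were control – PLX (mice 1 to 5), Tgfbr2ΔEC – PLX (mice 6 to 10), control + PLX (mice 11 to 15) and Tgfbr2ΔEC + PLX (mice 16 to 20). All mice were lasered, so no level without CNV was analysed here.

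MHC class II molecules carry peptides from endocytosed proteins to the surface of antigen-presenting cells, where CD4 T cells read them. H2-Aa and H2-Ab1 encode the alpha and beta chains of the I-A molecule, and H2-Eb1 the beta chain of I-E. Cd74, the invariant chain, occupies the groove during transport, and H2-DMa and H2-DMb1 encode the chains of H2-M, which exchanges its remnant for peptide. Ciita is the transactivator that is recruited to class II promoters and drives these genes together. Dendritic cells, B cells and a share of the macrophages are the usual carriers, while resting microglia are known for low levels.

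On GRCm39, 5 of the 7 genes lie on chromosome 17, namely H2-DMa (chr17:34338515-34358958), H2-DMb1 (chr17:34372046-34379204), H2-Ab1 (chr17:34476663-34488393), H2-Aa (chr17:34493404-34506798) and H2-Eb1 (chr17:34504236-34535648). H2-Aa is on the minus strand and its span overlaps that of H2-Eb1 on the plus strand, and the libraries were stranded. Ciita lies on chromosome 16 (chr16:10297923-10347694) and Cd74 elsewhere. Class II promoters are known for a module of an X box, an X2 box and a Y box, bound by RFX, CREB and NF-Y, on which CIITA assembles. The 120 bases before the start site are shown for the 3 members in which these letters were found. A part of these motifs in the changes described below was not tested. The sequences are those of RefSeq on GRCm38.p6, another build than that of the gene positions above. They run 5′ to 3′ on the strand of the gene, with the matched motifs in capitals.
H2-Aa: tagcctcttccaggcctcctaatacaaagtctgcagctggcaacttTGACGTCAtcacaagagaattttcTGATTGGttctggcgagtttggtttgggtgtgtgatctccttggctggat
H2-Eb1: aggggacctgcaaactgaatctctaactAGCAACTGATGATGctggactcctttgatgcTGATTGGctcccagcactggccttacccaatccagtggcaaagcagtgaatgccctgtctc
H2-DMb1: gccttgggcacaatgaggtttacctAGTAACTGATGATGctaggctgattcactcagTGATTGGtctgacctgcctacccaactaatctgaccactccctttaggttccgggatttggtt

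The H2-Aa sequence (chr17:34287824-34287943, minus strand) held an X2 box TGACGTCA at 74 to 67 bases and a Y box TGATTGG at 50 to 44 bases before the start. In H2-Eb1 (chr17:34305747-34305866) an X box AGCAACTGATGATG stood at 92 to 79 bases and the Y box at 61 to 55 bases. The arrangement in H2-DMb1 (chr17:34153071-34153190) was nearly the same, with AGTAACTGATGATG at 95 to 82 bases and the Y box at 63 to 57 bases. The letters searched on both strands were TGATTGG, TGACGTCA and AGNAACTGATGATG, the last being the 14 bases from an AG that H2-Eb1 and H2-DMb1 share but for 1 base (N), so that its presence in both is given by its choice. Among 32851 promoters of 250 bases, 2375 (7.23%) held the Y box, 508 (1.55%) the X2 box, 3 (0.00913%) the X box and 44 (0.134%) the Y box with one of the others. None of the 3 motifs was found in either entry for H2-DMa, which says no more than that these letters are not in those windows. H2-Ab1, Cd74 and Ciita had no entry.

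The values are normalized counts, that is, reads per gene estimated by the authors and scaled between libraries, and they are not whole numbers. Their sum was 24718469 to 25956180 for choroids and 22256892 to 24507335 for retinas. From the steps between low values, choroid libraries held approximately 21449500 to 28340000 reads and retina libraries 20960600 to 30544800. A value of 3 reads was worth 2.70 to 3.58 normalized counts in the choroid and 2.23 to 3.37 in the retina, which covers counting error alone. As a check of the tissue labels, 5 markers of the retinal pigment epithelium (RPE) summed to 93979 to 221031 normalized counts in choroids and at most 14529 in retinas, and 10 photoreceptor markers to at least 1035430.0 in retinas and at most 138483 in choroids. The retinas of mice 1, 5 and 6 stood apart in class II transcripts, and 8 choroids had reads of H2-Ea, a gene of the I-E molecule. Both are described below, with the values that move most when these mice are left out. Tgfbr2 itself did not separate the genotypes in whole tissue, with 10503 ± 425 normalized counts in control – PLX and 10176 ± 1077 in Tgfbr2ΔEC – PLX choroids (mean ± SD, n = 5 each). The paper reports successful deletion in the endothelium of choroid and retina, and by PCR and qPCR on choroid.

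In the choroid all 7 genes fell with PLX. The I-A chains, the invariant chain and H2-DMa were left with 36.3 to 38.5% of the mean level without PLX, H2-Eb1 with 35.04%, and H2-DMb1 and Ciita with 51.2% and 49.8%. Over both genotypes 7 of 7 members passed the test in the lower direction, against 5.06% of all genes tested. Changes were tested by limma on log2(normalized count + 1) with Benjamini-Hochberg adjustment over 23619 choroid genes, and an adjusted p at or under 0.05 was called. In bulk tissue, fewer cells of a type and less RNA per cell cannot be told apart.

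H2-Aa, the alpha chain of I-A, measured 3953, 4094, 5343, 4359 and 5479 normalized counts in the control – PLX choroids. It measured 3329.8, 4423, 3373, 5157 and 4488 in Tgfbr2ΔEC – PLX. With PLX the values were 1192, 2560.1, 1519, 2005 and 1122 in controls and 1189, 1921, 1759, 1688 and 1504 in Tgfbr2ΔEC mice. Every choroid with PLX lay below every choroid without it. The log2 difference over both genotypes was -1.44 ± 0.14 (SE; limma, adjusted p = 1.66e-07). H2-Ab1, its beta chain, took values of 2951 to 4849 in the mice – PLX and 900.4 to 2437 in the mice + PLX, again without overlap (log2 difference -1.42, adjusted p = 8.11e-07).

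Cd74, the invariant chain, the most abundant of the 7 per kilobase of transcript, stood at 9683, 11636, 14596, 11122 and 14591 normalized counts in control – PLX choroids. In Tgfbr2ΔEC – PLX choroids it stood at 8242, 11575, 9123, 13445 and 11652. The values with PLX were 3129.6, 7206, 4307, 4973 and 2704 in controls and 3448, 4970.1, 4736, 3839 and 3608 in Tgfbr2ΔEC mice. The ranges did not overlap, and mouse 12 held the highest value with PLX. The log2 difference was -1.46 ± 0.15 (adjusted p = 3.75e-07), a 2.69-fold lower mean with PLX.

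H2-Eb1, the beta chain of I-E, varied most within groups. It measured 3165, 1497, 2361, 3427 and 2328 normalized counts in control – PLX and 2736, 3241, 2635, 4422 and 3685 in Tgfbr2ΔEC – PLX choroids. With PLX it measured 438, 2149.5, 643, 1292 and 405 in controls and 649, 1659, 729, 1265 and 1105 in Tgfbr2ΔEC mice. Here the ranges overlapped, because mouse 2 without PLX was lower than mice 12 and 17 with PLX. The log2 difference of -1.66 ± 0.26 was the most negative of the 7 and had the widest error (adjusted p = 1.87e-04).

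H2-DMa, the alpha chain of the peptide exchanger H2-M, lay at 295 to 671 normalized counts in the mice – PLX, and 139.6 to 209.7 was its range in the mice + PLX (log2 difference -1.43 ± 0.13, adjusted p = 7.32e-08). Its spread was small with PLX, at an SD of 21.9 against 110.1 without (n = 10 each). H2-DMb1, the beta chain, lay at 533 to 746 in the mice – PLX and at 176 to 482 in the mice + PLX (log2 difference -1.02 ± 0.15, adjusted p = 4.86e-05). H2-DMb1 and its neighbour H2-DMb2 share 95.7% of the bases over 1005 bases, or 71.5% of the H2-DMb1 transcript, so that reads could be divided between them. Their sum fell from 732 ± 90.6 to 381 ± 89.04 normalized counts (SD, n = 10 each), or to 52.0%.

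Ciita measured 343, 247, 499, 252 and 389 normalized counts in control – PLX choroids and 258, 235, 243, 449 and 278 in Tgfbr2ΔEC – PLX choroids. With PLX it measured 101, 142, 122, 134 and 194 in controls and 124, 244, 148, 282 and 99.3 in Tgfbr2ΔEC mice. In controls the 5 values with PLX lay below the 5 without, while in Tgfbr2ΔEC mice mouse 19 with PLX exceeded 4 of the 5 mice without. The log2 difference was -1.03 ± 0.19 over both genotypes (adjusted p = 0.00117).

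**Figure D1:**
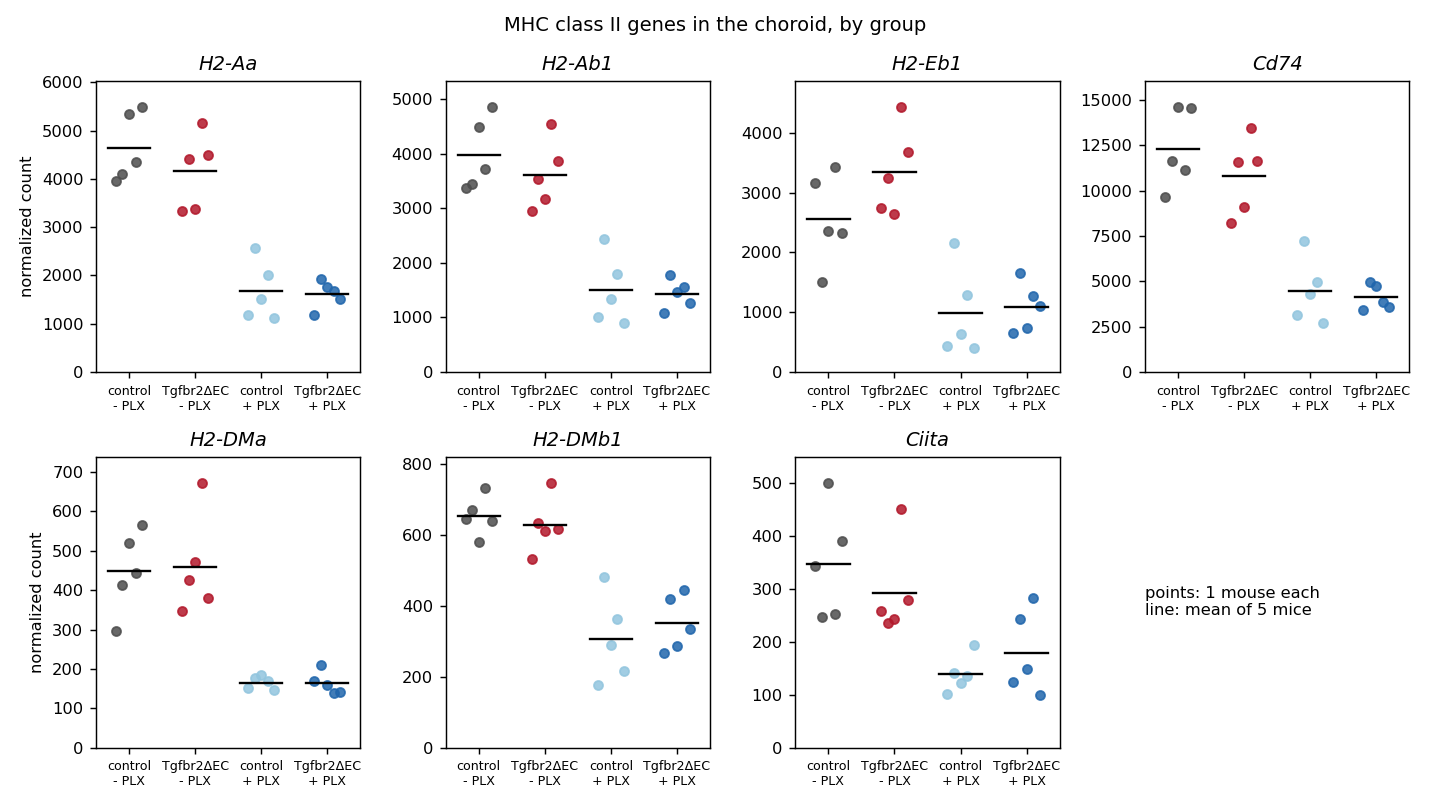
Normalized counts of the 7 genes in each choroid (vertical axis, from 0), by group, with 1 point per mouse and a line at the mean of 5 mice. For H2-Aa, H2-Ab1, Cd74, H2-DMa and H2-DMb1 all 10 choroids with PLX lie below all 10 without it, and for H2-Eb1 and Ciita the groups overlap. The share of all genes without overlap was not counted.

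The fall was then taken within each genotype. In controls 7 of 7 members were called lower (3.15% of all genes), with log2 differences from -1.63 for H2-Eb1 to -1.18 for H2-DMb1. In Tgfbr2ΔEC mice 6 of 7 were called lower (3.5% of all genes), with -1.69 for H2-Eb1 and -0.86 for H2-DMb1. With a score of neural retina markers as a covariate, which were high in Tgfbr2ΔEC – PLX choroids, 4 of 7 were called there (537 of all genes in place of 958), and H2-Eb1 (-1.66, adjusted p = 0.0708) and H2-DMb1 (-0.81, adjusted p = 0.144) were not. The call of H2-DMb1 was also lost without mouse 9, 16 or 18. Ciita was the member not called in Tgfbr2ΔEC mice, at -0.77 (adjusted p = 0.136, two-sided exact permutation p = 0.0952, n = 5 each). The difference between the genotypes in this response was tested by the interaction and passed for 0 of 7 members (0% of all genes, limma), with 0 of the 7 and 1552 of all genes under an unadjusted p of 0.05. For Ciita the interaction was 0.52 with a 95% interval of -0.29 to 1.33, and for Cd74 it was 0.15 (-0.46 to 0.76). The calls in controls were lost without the mice with H2-Ea reads. Without the 8 mice with such reads, 2 control mice per diet remained, the log2 differences in controls were between -1.08 (Ciita) and -0.72 (H2-DMb1), and 0 of 7 were called, with 227 genes still called among all genes. In Tgfbr2ΔEC mice 6 members stayed called without them, and over both genotypes 6 of 7, Ciita being the exception (log2 difference -0.83, adjusted p = 0.133). For each member the log2 difference over both genotypes was then smaller in size than with all mice. It was -1.07 for H2-Aa, -0.997 for H2-Ab1, -1.15 for H2-Eb1, -1.08 for Cd74, -1.27 for H2-DMa and -0.68 for H2-DMb1.

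Deletion of endothelial Tgfbr2 left no called difference in class II genes of the choroid. Without PLX 0 of 7 members passed (limma, 0.00423% of all genes), and with PLX 0 of 7 passed (0.00423%). At an unadjusted p under 0.05 these were again 0 of 7 in both, and 2184 and 889 of all genes. The share of all genes called without PLX rests on 1 gene, and 411 genes were called without mouse 15 and 303 when these 2 groups were fitted alone, with 0 of 7 members in both. H2-Eb1 had the widest gap, at 3344 ± 735 normalized counts in Tgfbr2ΔEC – PLX against 2556 ± 765 in control – PLX (SD, n = 5 each), a log2 difference of 0.42 with a 95% interval of -0.36 to 1.19. The 3 lowest of these 10 values belonged to mice 2, 3 and 5, which carried H2-Ea reads, and without the 8 mice with such reads the difference was -0.0050. For Cd74 the difference without PLX was -0.19 (-0.63 to 0.24), for H2-Aa -0.17 (-0.58 to 0.24) and for Ciita -0.23 (-0.80 to 0.34). Changes within these bounds could not be told from 0 with 5 mice per group. The choroids of Tgfbr2ΔEC – PLX mice carried more neural retina transcripts, at summed marker counts of 48629.9 to 138483 against 4014 to 28319.8 in control – PLX, and mouse 15 of control + PLX had 134533. With a score of these markers as a covariate the genotype difference of H2-Eb1 without PLX was 0.39 and 0 of 7 members were called.

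Cd74 and the I-A chains fell in proportion to each other. The ratio of Cd74 to H2-Ab1 was 3.04 ± 0.192 without PLX and 2.96 ± 0.242 with PLX, and that of H2-Aa to H2-Ab1 was 1.16 ± 0.0488 and 1.14 ± 0.0631 (normalized counts, SD, n = 10 each). Both shifts were smaller than the spread between mice. The ratio of Ciita to H2-Ab1 was 0.0834 ± 0.0157 without and 0.115 ± 0.0495 with PLX, and that of H2-Eb1 was 0.790 ± 0.218 and 0.668 ± 0.199. Per kilobase of the longest transcript, the mean level in choroids without PLX was 6175 normalized counts for Cd74, 2596 for H2-Ab1, 1657 for H2-Eb1 and 1365 for H2-Aa. The chains of H2-M followed at 457 for H2-DMb1 and 219 for H2-DMa, and Ciita at 41.1. The place of H2-Aa in this order depends on the length used, since with the median coding transcript it came second at 4040.3, between Cd74 at 9008 and H2-Ab1 at 3321.

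The retina carried far fewer class II transcripts, and the loss with PLX was called for 3 of 7 members. Cd74 measured 505, 85.7, 124, 60.6 and 1029.9 normalized counts in control – PLX retinas and 697, 54.1, 71.5, 46.5 and 31.96 in Tgfbr2ΔEC – PLX retinas. With PLX it measured 4.21, 3.76, 2.67, 0 and 0.739 in controls and 5.78, 35.4, 9.39, 0 and 1.65 in Tgfbr2ΔEC mice, so that 5 of 10 were at or under the value of 3 reads. The log2 difference over both genotypes was -5.03 ± 0.67 (SE; limma over 23243 retina genes, adjusted p = 5.40e-05). Mouse 17 with PLX, at 35.4, lay just above the lowest mouse without PLX, and the other values did not overlap.

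H2-Aa measured 259, 31.9, 46.1, 30.9 and 456 normalized counts in control – PLX and 339, 21.5, 28.4, 13.3 and 2.95 in Tgfbr2ΔEC – PLX retinas. With PLX it measured 3.84, 2.92, 1.75, 9.93 and 1.33 in controls and 1.83, 13.3, 0.335, 9.36 and 5.63 in Tgfbr2ΔEC mice. Mice 9 and 10 without PLX lay under the highest mouse with PLX, mouse 17. The log2 difference was -3.38 ± 0.68 (adjusted p = 0.00905). For H2-Eb1 the ranges were 8.03 to 294 without and 1.60 to 36.6 with PLX, and the log2 difference was -2.76 ± 0.64 (adjusted p = 0.0329). These 3 calls compare with 1.08% of all retina genes called lower, and 6 of 7 members had an unadjusted p under 0.05. In controls alone 2 members were called (0.727% of all genes), Cd74 at -6.21 and H2-Aa at -4.41, and 7 of 7 had an unadjusted p under 0.05. In Tgfbr2ΔEC mice alone 0 were called by limma (0.512% of all genes) and 3 had an unadjusted p under 0.05, with Cd74 at -3.86 (adjusted p = 0.0892). The interaction of genotype and PLX was called for 0 of 7 (0% of all genes), with 0 of the 7 and 567 of all genes under an unadjusted p of 0.05 by limma, and for Cd74 it was 2.35 with a 95% interval of -0.42 to 5.12.

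The other 4 members of the retina did not pass the test. H2-Ab1 measured 244, 39.5, 63.5, 50.5 and 385 normalized counts in control – PLX and 303, 60.3, 72.8, 40.6 and 29.001 in Tgfbr2ΔEC – PLX retinas. With PLX it was still 48.6, 23.8, 19.5, 47.2 and 41.3 in controls and 28.2, 82.1, 23.3, 28.2 and 23.5 in Tgfbr2ΔEC mice, above the value of 3 reads in all 10, whereas its partner H2-Aa was at or under that value in 5 of 10. The log2 difference of H2-Ab1 was -1.33 ± 0.44 (adjusted p = 0.296, 95% interval -2.24 to -0.42), and without the retinas of mice 1, 5 and 6 it was -0.55 (adjusted p = 0.9997). H2-DMa overlapped between the diets, at 34.8 to 159 with and 84.7 to 176 without PLX, with a log2 difference of -0.41 (adjusted p = 0.846, 95% interval -0.85 to 0.03). In control retinas its 5 values with PLX lay below the 5 without, at 72.02 ± 7.81 against 116 ± 13.8 (SD, two-sided exact permutation p = 0.00794, the smallest that 5 against 5 allow, n = 5 each), but the adjusted limma p was 0.803. H2-DMb1 lay at 7.16 to 54.8 in retinas – PLX and at 0 to 41.01 in retinas + PLX (log2 difference -1.71, adjusted p = 0.433). Ciita was listed at 0 in 7 of 10 retinas with PLX and in 1 of 10 without. Its change was not called by limma (log2 difference -1.83, adjusted p = 0.570, and -0.82 without these 3 retinas). The two-sided exact permutation p was 0.0433 over both genotypes, 0.0159 in controls and 0.524 in Tgfbr2ΔEC mice (n = 5 per group, not adjusted).

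**Figure D2:**
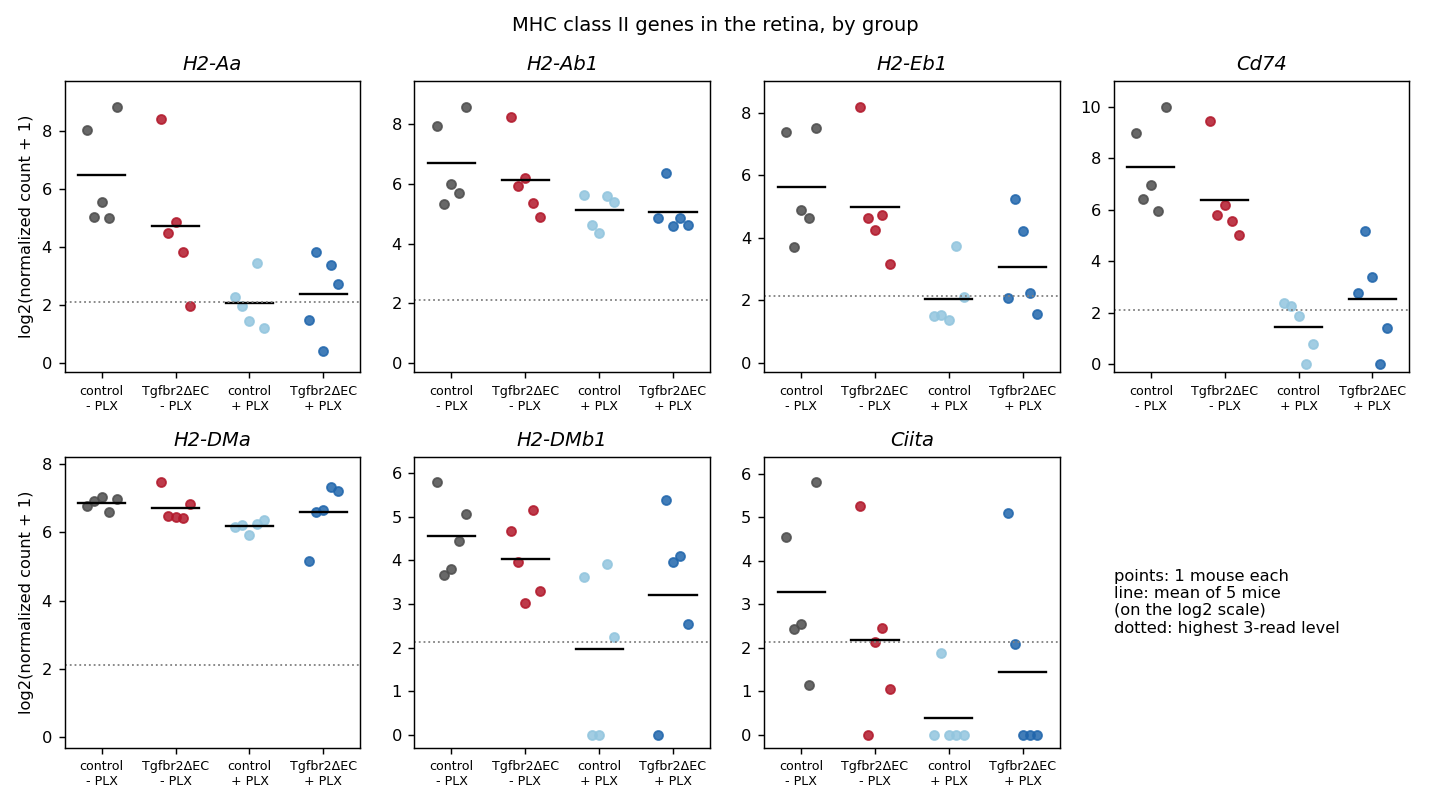
The 7 genes in each retina as log2(normalized count + 1), by group, with 1 point per mouse, a line at the mean of 5 mice on this scale and a dotted line at the highest value of 3 reads among the retinas. The retinas of mice 1, 5 and 6 form the high points of the groups without PLX for the I-A and I-E chains and Cd74, and most values of Cd74, H2-Aa and Ciita with PLX lie near or under the dotted line while H2-Ab1 and H2-DMa stay above it.

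The retinas of mice 1, 5 and 6 were far above the others. Cd74 was 505, 1029.9 and 697 normalized counts in these 3 and between 31.96 and 124 in the other 7. The same 3 retinas held the highest sums of the monocyte markers Ccr2, Ly6c2 and Plac8, at 407, 224 and 198, against at most 33.02 in the other 7, and of the 10 retinas without PLX they held the 3 lowest sums of RPE markers, at 5423, 7166 and 8139. They also held the 3 highest sums of these 10 for dendritic cell markers, at 304, 329 and 342 against at most 288, for microglia markers, at 1948, 2119 and 1755 against at most 1719, and for neutrophil markers, at 19.3, 23.5 and 23.7 against at most 13.1. The dendritic cell sum was as high as 302 in a retina with PLX, that of mouse 15. Markers of border and resident macrophages, Mrc1 among them, were high in mouse 1 at 2132 but at 438 and 435 in mice 5 and 6. The part of these cells in the class II levels was not tested. Without these retinas, which were set aside after their values had been seen, 2 of 7 members stayed called over both genotypes, Cd74 at -4.04 (adjusted p = 4.08e-04) and H2-Aa at -2.27 (adjusted p = 0.0450), and H2-Eb1 at -1.74 did not (adjusted p = 0.266). In controls alone Cd74 was the 1 member still called, at -4.99 (adjusted p = 0.00570). Without the 8 mice with H2-Ea reads, Cd74 was the 1 member called over both genotypes, at -5.27 (adjusted p = 0.0435), and 0 were called in controls. Leaving out single mice also mattered for H2-Eb1, whose call over both genotypes was lost without any of mice 1, 5, 6, 9, 11, 12, 13, 15, 16, 19 or 20. The call of H2-Aa in controls was lost without any of mice 1, 5, 11, 12, 13 or 15.

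Genotype differences in the retina were called for 0 of 7 members without PLX (limma, 0% of all genes) and with PLX (0%). At an unadjusted p under 0.05 these were 0 of 7 in both, and 758 and 629 of all genes. H2-Aa had the lowest estimate without PLX, at -1.77 with a 95% interval of -3.78 to 0.24, and Cd74 stood at -1.26 (-3.22 to 0.70). Of the 3 high retinas, those of mice 1 and 5 are controls and that of mouse 6 is Tgfbr2ΔEC.

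**Figure D3:**
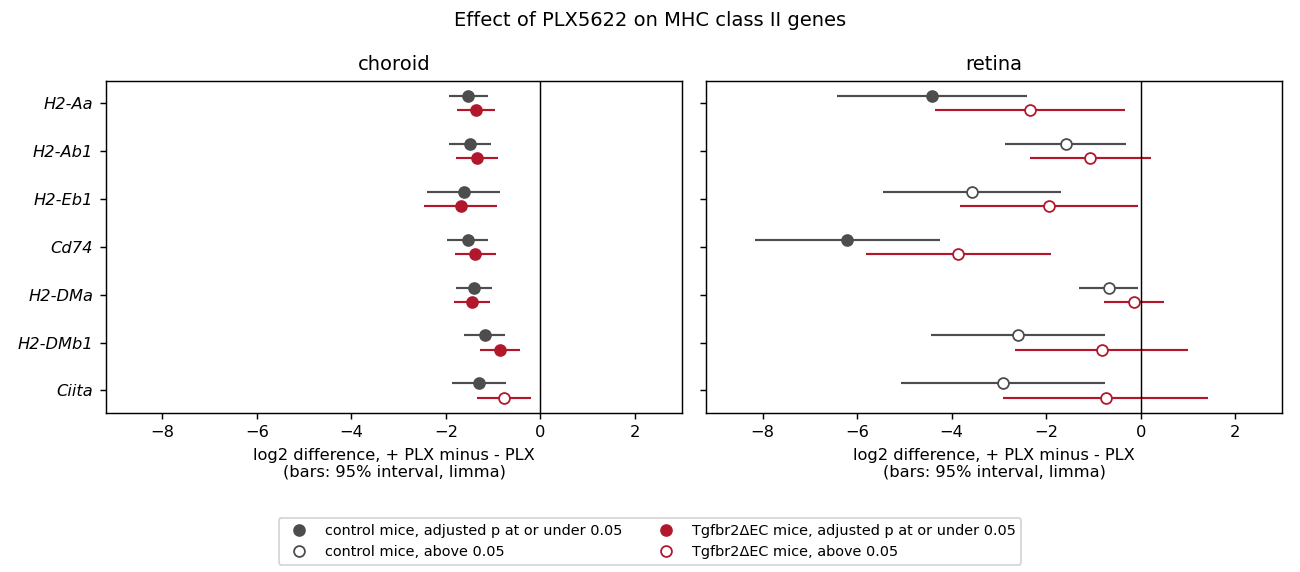
Log2 differences with PLX minus without PLX and their 95% intervals from limma, for the 7 genes in choroid and retina, separately for control (grey) and Tgfbr2ΔEC mice (red), with filled points where the adjusted p was at or under 0.05. All choroid estimates but that of Ciita in Tgfbr2ΔEC mice are filled and lie between -1.69 and -0.86, while in the retina the filled points are Cd74 and H2-Aa in controls and the intervals are wider, least so for H2-DMa.

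Choroid and retina of the same mice differed in all 7 genes. Without PLX 7 of 7 members were called higher in the choroid (37.7% of all genes), with log2 differences of 6.48 for H2-Aa, 6.44 for Cd74, 6.16 for H2-Eb1, 5.54 for Ciita, 5.45 for H2-Ab1 and 5.03 for H2-DMb1. H2-DMa differed least, at 2.00 ± 0.18 (SE; limma over 24317 genes, adjusted p = 1.41e-12). With PLX 7 of 7 were again called higher (37.7% of all genes), from 0.98 for H2-DMa to 10.01 for Cd74. The order of the levels was therefore choroid without PLX, choroid with PLX, retina without PLX and retina with PLX for each member by its mean. For 6 members the lowest choroid with PLX exceeded the highest retina of any group, for example 405 against 294 normalized counts for H2-Eb1. How many of all genes are separated in this way was not counted. For H2-DMa choroids with PLX (139.6 to 209.7) overlapped retinas without PLX (84.7 to 176). In the retina, neighbours in this order did not pass the test between diets for H2-Ab1, H2-DMa, H2-DMb1 and Ciita. Within a tissue and diet the genotypes overlapped for every member. These differences rest on the scaling the authors chose across tissues of unlike composition.

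The effect of PLX itself differed between the tissues for 2 members (1.37% of all genes). Cd74 fell more in the retina, with an interaction of 3.57 ± 0.72 on the log2 scale (choroid minus retina, adjusted p = 0.00264), and H2-DMa fell more in the choroid, with -1.02 ± 0.26 (adjusted p = 0.0262). With the mouse as a block, the H2-DMa value kept its size but not its call (adjusted p = 0.101), and 1 member remained called. Without mice 1, 5 and 6 the values were 2.53 for Cd74 (adjusted p = 0.0321) and -1.19 for H2-DMa (adjusted p = 0.0191), both still called. Without the 8 mice with H2-Ea reads the values were 4.19 for Cd74 (adjusted p = 0.0876) and -1.20 for H2-DMa (adjusted p = 0.0673), and 0 members were called. For H2-Aa the interaction was 1.94 (95% interval 0.46 to 3.42, adjusted p = 0.274), and for H2-Ab1 it was -0.09 (-1.07 to 0.89). Without mice 1, 5 and 6 these were 0.80 (adjusted p = 0.812) and -0.89 (adjusted p = 0.380).

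Genes that work with class II molecules moved unevenly. Of the 38 other genes of the pathway, 37 were tested in the choroid. Among 7 genes of invariant chain and antigen processing, 4 fell in the choroid, with a median log2 difference of -1.04 against 0.00 over all genes. These were Marchf1, a ubiquitin ligase that removes class II molecules from the surface (-1.69, adjusted p = 1.78e-06), Lgmn, an asparagine-specific protease of the endosome (-1.29, adjusted p = 2.61e-10), Ctss, which cleaves the invariant chain (-1.17, adjusted p = 1.88e-07), and Ifi30, a lysosomal thiol reductase (-1.04, adjusted p = 4.03e-08). In the retina 2 of these 7 fell, Ctss at -7.45 (adjusted p = 7.40e-10) and Ifi30 at -0.87 (adjusted p = 0.0253), and the median was -0.17. Ctss of the retina went from 650.1 ± 193 to 4.56 ± 5.14 normalized counts (SD, n = 10 each), with 4 of 10 retinas with PLX at or under the value of 3 reads.

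Of the 7 genes for factors that bind class II promoters 0 passed the test in either tissue by limma, and 0 had an unadjusted p under 0.05. This list held the RFX subunits Rfx5, Rfxap and Rfxank, the NF-Y subunits Nfya, Nfyb and Nfyc, and Creb1. Their log2 differences with PLX lay between -0.33 and 0.13 in the choroid and between -0.08 and 0.06 in the retina. Of the genes that induce Ciita or belong to the interferon gamma pathway, 3 of 10 tested fell in the choroid and 2 of 10 in the retina. Spi1, the myeloid factor PU.1, fell in both (-1.92, adjusted p = 1.40e-07, and -4.12, adjusted p = 1.00e-04), as did Irf8, a factor of the myeloid lineage (-1.17, adjusted p = 3.28e-05, and -1.07, adjusted p = 0.0205). Ifngr1, a chain of the interferon gamma receptor, fell by 0.35 in the choroid (adjusted p = 4.70e-04). Ifng itself was too low to be tested in either tissue.

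Among the costimulation genes 4 of 6 fell in the choroid, Cd86 (-2.47, adjusted p = 1.24e-08), Cd80 (-1.18, adjusted p = 7.40e-05), Cd40 (-0.92, adjusted p = 0.0147) and Icosl (-0.29, adjusted p = 0.0169). Cd86 and Cd80 are the ligands of CD28 on T cells. In the retina Cd86 was the 1 of 6 called (-3.71, adjusted p = 3.38e-06). Cd4, the T cell receptor's partner for class II that some macrophages and monocytes also express, went from 292 ± 69.1 to 72.8 ± 50.99 normalized counts in the choroid (SD, n = 10 each; log2 difference -2.17, adjusted p = 3.52e-06), while 0 of the 5 T cell markers Cd3e, Cd3d, Cd3g, Trac and Lck passed there (limma, 0 at an unadjusted p under 0.05). The partners and paralogs of the members (H2-DMb2, H2-Oa, H2-Ob, H2-Eb2 and H2-Ea) had 0 of 5 called in the choroid by limma (2 at an unadjusted p under 0.05) and 1 of 3 tested in the retina, H2-Ob, a chain of the H2-M inhibitor H2-O (-1.97, adjusted p = 0.0126).

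**Figure D4:**
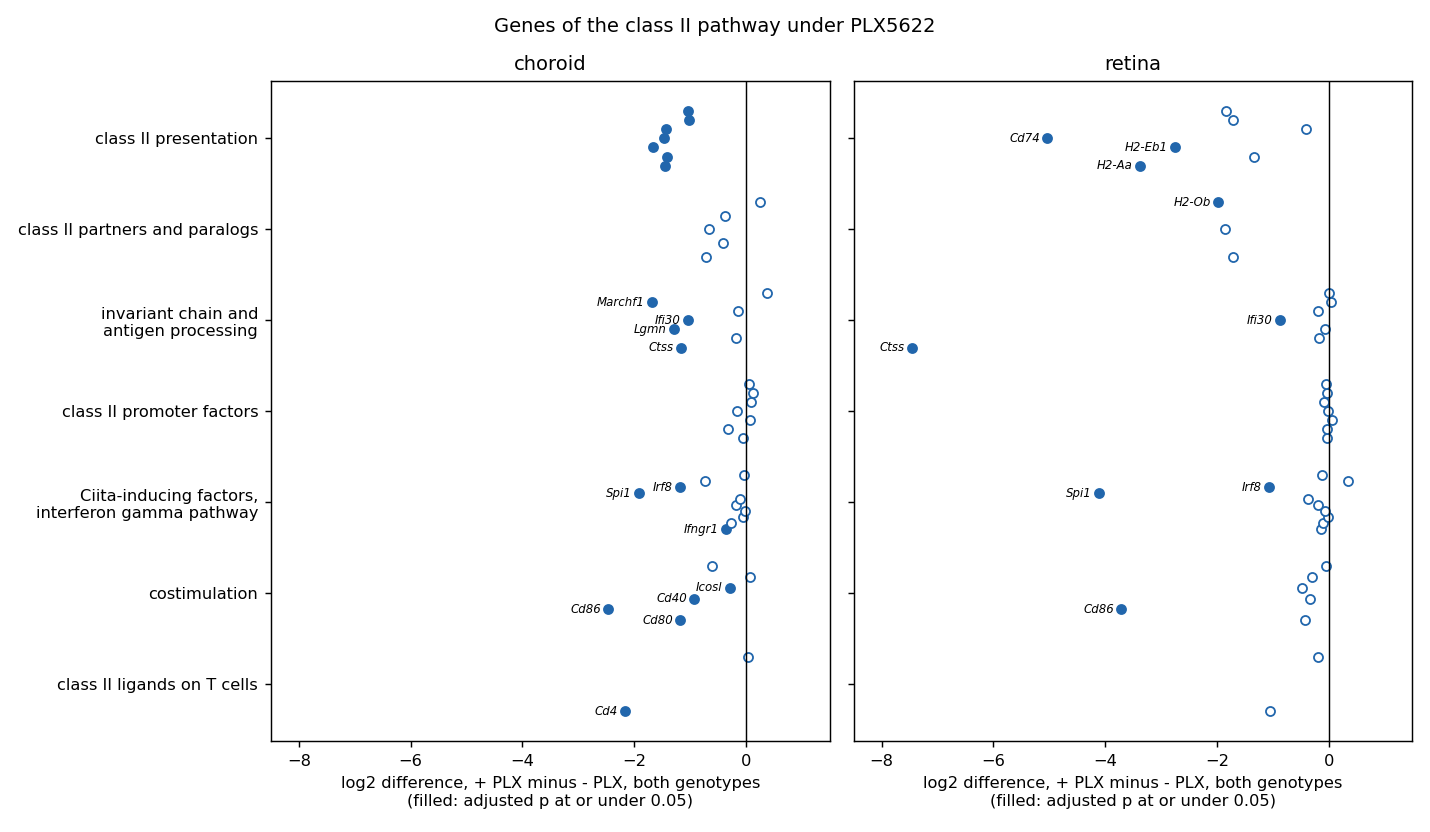
Log2 differences with PLX minus without PLX over both genotypes for the class II genes and 6 lists of pathway genes, in choroid and retina, with filled points for an adjusted p at or under 0.05 and names at the filled points (left out for the class II genes of the choroid, all 7 of which are filled). Genes of the promoter factor list lie close to 0 in both tissues, and Ctss of the retina lies farthest to the left at -7.45.

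Markers of several cell types that can carry class II fell with PLX beside the members. In the choroid 7 of 8 MP markers and 7 of 7 markers of border and resident macrophages were called lower, and the summed MP markers were 28092 to 33107 normalized counts in control – PLX and 8756 to 10712 in control + PLX. In Tgfbr2ΔEC mice they were 26979.7 to 31052 and 7918 to 9865. Mrc1, a macrophage mannose receptor, had a log2 difference of -4.14, below that of every member. Of the 8 dendritic cell markers 5 were called lower, Clec10a (-3.14, adjusted p = 3.60e-07), Cd209a (-1.49, adjusted p = 0.00116), Ccr7 (-1.21, adjusted p = 0.00255), Itgax (-1.05, adjusted p = 3.73e-05) and Flt3 (-0.84, adjusted p = 0.00129), and the sum of the 8 lay at 1919 to 2756 normalized counts in control – PLX choroids and at 1018 to 1522 in control + PLX choroids. Xcr1, a marker of cross-presenting dendritic cells, stood at -0.14 and was not called. Among monocyte markers 1 of 3 was called, Ccr2 (-1.83, adjusted p = 2.80e-07). Of the 7 microglia markers tested 5 were called lower in the choroid, among them Cx3cr1 (-3.47, adjusted p = 1.29e-13). The sum of the 7 lay at 8163 to 9658 in control – PLX and 4172 to 5618 in control + PLX choroids. Tmem119, a part of this sum, did not fall, at 1567 ± 201 normalized counts without and 1609 ± 251 with PLX (SD, n = 10 each). Endothelial markers were called higher for 2 of 5, Cldn5 (0.41, adjusted p = 0.0192) and Pecam1 (0.24, adjusted p = 0.0424), and 0 of 3 neutrophil markers passed by limma (0 at an unadjusted p under 0.05). The part of each cell type in the fall of the class II genes was not tested.

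In the retina 7 of 7 tested microglia markers and 7 of 8 MP markers fell, with a median log2 difference of -4.96 for microglia markers. Microglia marker sums were 1402 to 2119 in control – PLX and 348 to 462 in control + PLX. Of border and resident macrophage markers 3 of 7 fell and of monocyte markers 1 of 3, while 0 of 5 endothelial, 0 of 2 neutrophil and 0 of 2 T cell markers tested passed by limma (0, 1 and 0 at an unadjusted p under 0.05). Of dendritic cell markers 1 of 8 was called, Itgax (-3.59, adjusted p = 2.11e-06), and Clec9a and Ccr7 were at 0 in all retinas with PLX. In the choroid Csf1r, the target of PLX5622, kept 3964 ± 530.2 of 8035 ± 640.2 normalized counts, and in the retina 60.5 ± 28.6 of 556 ± 163 (SD, n = 10 each).

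The genes most like the class II genes were named from 15274 other protein-coding genes in the choroid and 14573 in the retina, by Pearson correlation with the mean log2 level of H2-Aa, H2-Ab1, H2-Eb1 and Cd74 over 20 libraries of a tissue. In the choroid these were Mgl2 (0.97), Gmfg (0.95), Sla (0.95), Glrx (0.95) and Lilrb4a (0.95). The libraries share the fall with PLX in these values. After the 4 group means had been subtracted, they were Clec4b1 (0.87), Mgl2 (0.83), Plac8 (0.83), Sla (0.82) and H2-D1 (0.82). The choroids with H2-Ea reads are among these libraries, and the likeness was not computed without them. Mgl2 and Clec4b1 encode C-type lectins, and H2-D1 encodes a class I molecule of the same locus. Among the members themselves, H2-DMb1 kept 0.86 within groups, while H2-DMa kept 0.44 and Ciita 0.35. In the retina the likest genes were Ccr2 (0.96), Pirb (0.95), Lyz2 (0.95), Slfn4 (0.94) and Tgfbi (0.93), and within groups Lyz2 (0.94), Ccr2 (0.94), Slfn4 (0.90), Pirb (0.90) and Oas2 (0.90). Ccr2 is the receptor that draws monocytes into tissue and Lyz2 encodes a lysozyme of myeloid cells. The values in the retina share the high libraries of mice 1, 5 and 6.

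The ratio of H2-Eb1 to H2-Ab1 went with reads of H2-Ea, the alpha chain of I-E. C57BL/6 mice are known to lack H2-Ea transcripts because of a promoter deletion. H2-Ea was above 0 in 8 choroids, among them mice 2, 3 and 5 of control – PLX with 41.2, 59.6 and 72.8 normalized counts. It was 21.5, 14.8 and 17.7 in mice 11, 13 and 15 of control + PLX, and 15.8 and 8.96 in mice 16 and 18 of Tgfbr2ΔEC + PLX. The other 12 choroids, among them all 5 of Tgfbr2ΔEC – PLX, were listed at 0. These 8 choroids also held the 8 lowest ratios of H2-Eb1 to H2-Ab1 of the 20, from 0.433 (mouse 11) to 0.599 (mouse 16), and the lowest of the other 12 was 0.720 (mouse 14). They held the 8 highest ratios of H2-DMb2 to H2-DMb1 as well, from 0.210 (mouse 2) to 0.340 (mouse 5), against at most 0.136 (mouse 9) in the others. In the retina H2-Ea was above 0 in mouse 5 (6.26) and mouse 16 (0.789, about 1 read), both of the same 8 mice. The pattern was noticed after the values had been seen, and the reads were assigned to the reference transcripts. The sequence of the MHC region of these mice was not analysed here. Whether all 20 mice carry the same sequence there was not tested, and in a mouse that differs from the reference the values of class II genes of chromosome 17, the I-A chains and H2-DMa included, would also depend on how well its reads match.

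**Figure D5:**
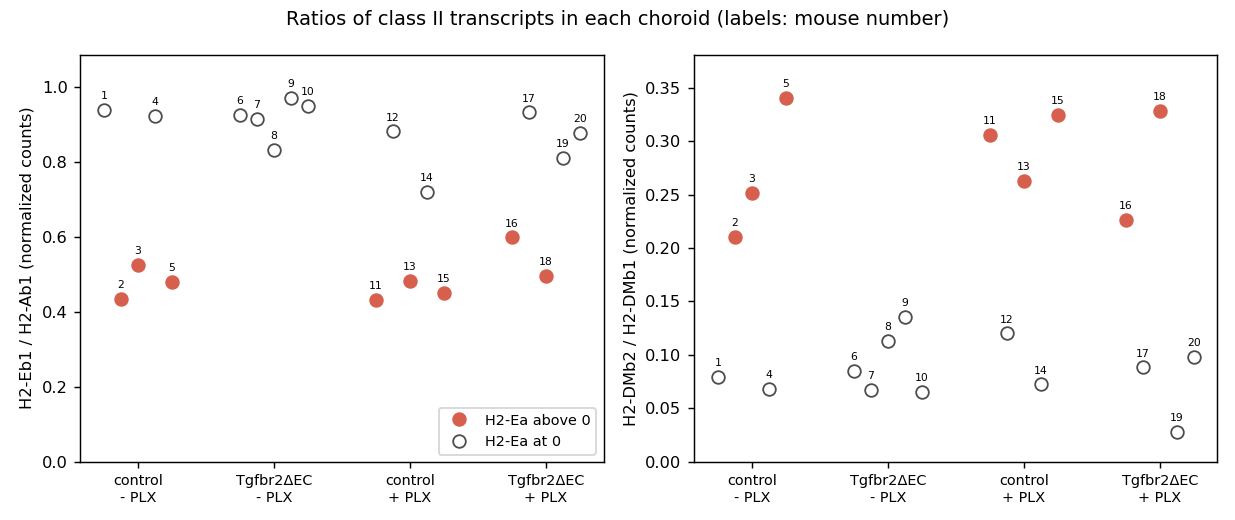
The ratio of H2-Eb1 to H2-Ab1 (left) and of H2-DMb2 to H2-DMb1 (right) in normalized counts for each choroid, by group and labelled by mouse, filled where H2-Ea was above 0. The 8 filled points lie below all 12 open points on the left, at 0.433 to 0.599, and above all of them on the right, at 0.210 to 0.340, in each of the 3 groups that hold such mice.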

How the data were processed

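RNA from choroid and retina of 20 lasered mice was sequenced by the authors as stranded single reads. Per the labels and the paper, reads were checked with FastQC 0.11.5, quantified with Salmon 1.10.1 on GRCm39 and normalized with DESeq2 1.36.0. The deposited signal is this normalized count per gene. It is not whole, so no test on counts was run. Identifiers were matched to GENCODE release vM39 of GRCm39 (53700 of 54307). The value of 1 read came from the steps between low values.

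Differences were tested with limma 3.58.1 in R 4.3.3 with a variance trend, on the scale of log2(normalized count + 1). Genes entered where their libraries in the fit averaged 1 or more, with 4 groups per tissue or 8 over both and no covariates. On this scale a change of low genes appears smaller than it is. Single values were compared by exact permutation in Python 3.11.15, and the H2-DMb1 and H2-DMb2 transcripts by blastn 2.17.0. The procedure was tested on simulated data. The result of 1 marker list is not reported here. The study's covariates (sex and a neuronal percentage) are not in the labels and were not used. The genes named are the 7 members, pathway genes called with PLX and the genes most like the members. H2-Ea was singled out after its values had been seen. The members and lists were chosen with earlier results of these data known. The labels give each mouse a number that its choroid and retina share, so the tissues are paired by animal. The deviations of the 2 tissues of a mouse from their group means correlated with a median r of 0.18 over 15687 genes (over 0.1 in 14 of 20 mice), against 0.00 between different mice. Nothing states that mice of a group are from separate litters, and p-values measure the spread between these mice. Promoter sequences are from RefSeq on GRCm38.p6, which held entries for 4 of the 7 members.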

Additional observations from a re-analysis of the deposited data

Results flagged for a closer look

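In 56 sets of 5 values (7 genes, 2 tissues, 4 groups), the gap between the most extreme mouse and its neighbour was examined as a share of the range. Of these gaps 11 passed Dixon's 95% limit. In independent, normally distributed sets chance gives about 2.8, but these sets share libraries, so the 2 numbers are no test against chance. The retina of mouse 6 gave 5 of the 11 gaps in Tgfbr2ΔEC – PLX. There H2-Aa was 339 normalized counts against 28.4 in the next mouse (share of the range 0.924), H2-Ab1 303 against 72.8 (0.840), H2-Eb1 294 against 25.5 (0.939), Cd74 697 against 71.5 (0.941) and Ciita 36.9 against 4.47 (0.879). The monocyte marker sum of this retina was 198, against at most 19.9 in the other 4, and its part in these levels was not tested.

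In Tgfbr2ΔEC + PLX retinas, mouse 17 stood apart in H2-Ab1 (82.1 against 28.2, share 0.916) and Cd74 (35.4 against 9.39, share 0.735), and its monocyte marker sum was 18.7 against at most 2.63 in the other 4. Mouse 16 stood apart in Ciita (33.04 against 3.23, share 0.902). In control + PLX retinas mouse 14 stood apart in H2-Eb1 (12.3 against 3.34, share 0.837) and mouse 12 in Ciita (2.67 against 0, share 1.0), which is under the value of 3 reads. The only gap in the choroid was that of mouse 9 in Ciita, at 449 against 278 in Tgfbr2ΔEC – PLX (share 0.797). The effect of PLX differed between the tissues for Cd74 (log2 interaction 3.57) and H2-DMa (-1.02), as tested by limma over 24317 genes. With the mouse as a block in limma, Cd74 stayed called (adjusted p = 0.00622) and H2-DMa did not (adjusted p = 0.101).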

How the results depend on the processing

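Other pseudocounts (0.5 and 5), minimum means (10, or any value above 0), scalings (equal totals, TMM factors), a robust variance, a sex score, a neural retina score, fits of the compared groups alone and leaving out each mouse were tried. Of 134 planned counts of called members 133 stayed within 1.5 times. The 1 that did not was the tissue by PLX interaction with the mouse as replicate block, which paired the tissues and gave 1 called member in place of 2. In the choroid with the neural retina score, H2-Eb1 (-1.66) and H2-DMb1 (-0.81) lost their call in Tgfbr2ΔEC mice. H2-Eb1 also lost it in controls when the compared groups were fitted alone (a fit that gives no value for contrasts over all 4 groups), and in the retina with a pseudocount of 5 (-2.09) or all genes above 0. Leaving out each mouse gave 1 to 3 called members in control retinas, 0 to 1 in Tgfbr2ΔEC retinas (1 without mouse 17) and 1 to 2 for the tissue by PLX interaction, where the H2-DMa call was lost without any of mice 4, 5, 8, 9, 14, 18, 19 or 20. In Tgfbr2ΔEC choroids H2-DMb1 lost its call without mouse 9, 16 or 18 (-0.95 to -0.77).

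Without the 8 mice with H2-Ea reads, chosen after seeing the data, called members numbered 0 in control choroids, 1 over all retinas, 0 in control retinas and 0 for the tissue by PLX interaction. Without the retinas of mice 1, 5 and 6 the number in control retinas was 1. Fewer mice entered these fits, and the cause was otherwise not tested. Among all genes, the genotype difference without PLX in the choroid had 1 called gene, 303 when its groups were fitted alone and 411 without mouse 15. PLX in control choroids had 885, and 572 when fitted alone. PLX in Tgfbr2ΔEC choroids had 958, and 537 with the neural retina score. With a minimum mean of 10 the retina had 154 in place of 254 over both genotypes and 104 in place of 171 in controls, and the tissue by PLX interaction had up to 620 in place of 332 when a mouse was left out. Without the H2-Ea mice choroids had 845 in place of 1684 over both genotypes and 227 in controls, and retinas 113, 42 (controls) and 65 (Tgfbr2ΔEC, in place of 120). Without the retinas of mice 1, 5 and 6 control retinas had 100.

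The following differences changed sign, none of them called in the fit reported. In the choroid without the H2-Ea mice, the genotype difference without PLX was 0.015 for H2-Ab1, -0.0050 for H2-Eb1 and 0.036 for Cd74. With PLX it was -0.46 for H2-Ab1 (-0.012 with the sex score), -0.33 for H2-Eb1 and -0.073 for H2-DMb1. The interaction was -0.40 for H2-Aa, -0.48 for H2-Ab1 and -0.58 for Cd74. In the retina without the H2-Ea mice, H2-DMa gave 0.31 for PLX in Tgfbr2ΔEC mice and 0.045 for genotype without PLX, and the genotype difference with PLX was 0.17 for H2-Ab1 and -0.24 for Ciita. Without the retinas of mice 1, 5 and 6, PLX in Tgfbr2ΔEC mice gave 0.043 for H2-DMa and 0.025 for Ciita. For the tissue by PLX interaction, a pseudocount of 5 gave -0.0051 for H2-DMb1 and -0.12 for Ciita, leaving out mice 1, 5 and 6 gave -0.19 for Ciita, and leaving out the H2-Ea mice gave 0.28 for H2-Ab1.

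Leaving out 1 mouse at a time turned the sign of further uncalled values. In the choroid the genotype difference without PLX ran from -0.11 to 0.13 for H2-DMa. With PLX it ran from -0.13 to 0.16 for H2-Aa, -0.15 to 0.21 for H2-Ab1, -0.20 to 0.15 for Cd74 and -0.11 to 0.031 for H2-DMa. The interaction ran from -0.0083 to 0.35 for H2-Ab1, -0.30 to 0.30 for H2-Eb1, -0.0082 to 0.35 for Cd74 and -0.15 to 0.091 for H2-DMa. In the retina PLX in Tgfbr2ΔEC mice ran from -0.33 to 0.21 for H2-DMa and -1.66 to 0.025 for Ciita, the genotype difference with PLX from -0.072 to 0.78 for H2-Aa and -0.38 to 0.070 for H2-Ab1, and the tissue by PLX interaction from -0.39 to 0.081 for H2-Ab1. Depth limits Ciita, Cd74 and H2-Aa in retinas with PLX, where many values are at or under 3 reads.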

Other observations

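H2-Ab1 and H2-Aa, the chains of one molecule, ended at unlike levels in the retina with PLX. Per kilobase of the longest transcript the means were 25.01 and 1.56 normalized counts, and per kilobase of the median coding transcript 31.99 and 4.62. In the choroid with PLX the latter means were 1279.8 and 1511. H2-DMa behaved likewise, at 89.6 normalized counts in retinas with PLX, where Cd74 was at 6.36.

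A pseudogene, Rps18-ps5, followed the 8 mice with H2-Ea reads and was chosen after its values had been seen. Its choroid values were 1318, 988, 1253, 695, 1008, 907, 1293 and 966 normalized counts in mice 2, 3, 5, 11, 13, 15, 16 and 18. In the other 12 the highest was 17.9 (mouse 4).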
